A study of Mus musculus with 10 samples.

Results

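The MS4A genes of myeloid cells were followed in macrophages purified from mouse tumours 24 h after an antibody against MerTK. The 8 genes are Ms4a4a, Ms4a4b, Ms4a4c, Ms4a6b, Ms4a6c, Ms4a6d, Ms4a7 and Ms4a8a. They were taken as a named list, matched by symbol to the Entrez identifiers of the files, and all 8 were found among 36528 gene identifiers. The C57Bl/6 mice carried MC-38 tumours, which grow from a mouse colon carcinoma line. One group had received anti-MerTK, an antibody against a receptor tyrosine kinase through which macrophages engulf dying cells. The comparison group had received anti-gp120, an antibody against an HIV envelope protein that mouse cells do not make. Each group holds 5 libraries of polyadenylated RNA. Nothing in the labels tells separate from pooled animals, so the p-values rest on the spread among these samples alone, and that spread may be technical. Counted reads per library ranged from 33159858 to 46108687. The comparison asks which MS4A transcripts differed between tumour macrophages of the treated and the control mice.

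MS4A proteins are small membrane proteins that cross the membrane several times, with both ends inside the cell. They sit beside immune receptors and tune their signalling and surface transport, and the family includes CD20 of B cells and the beta chain of the IgE receptor of mast cells. In macrophages, several MS4A genes mark maturation or a response to cytokines: Ms4a7 marks mature tissue macrophages, Ms4a4a is induced by interleukin 4 and glucocorticoids and associates with the receptor dectin-1, and Ms4a6c and Ms4a4c are found in inflammatory monocytes.

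All 8 lie in the Ms4a gene cluster on mouse chromosome 19 (RefSeq, GRCm38.p6). In the order of the chromosome they are Ms4a8a (Entrez 64381, 11067471 to 11081103), Ms4a7 (109225, 11321039 to 11336146), Ms4a4a (666907, 11375488 to 11392915), Ms4a4c (64380, 11404717 to 11427246), Ms4a4b (60361, 11443558 to 11463549), Ms4a6c (73656, 11469353 to 11487182), Ms4a6b (69774, 11518559 to 11530403) and Ms4a6d (68774, 11586606 to 11604804). Ms4a8a stands apart from the others, which lie within 283.8 kb. Ms4a4a, Ms4a4c, Ms4a4b, Ms4a6c and Ms4a6b are on the plus strand, and Ms4a8a, Ms4a7 and Ms4a6d on the minus strand (GENCODE M21).

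The members fall into close pairs by sequence, which bears on how reads were assigned to them. The coding sequences of Ms4a4b and Ms4a4c were identical at 91.8% of aligned bases, and those of Ms4a6b and Ms4a6c at 86.3%. Ms4a6d was identical to Ms4a6b at 81.8% and to Ms4a6c at 79.7%. All other pairs lay between 60.9% and 69.9%. The same pairing was seen before the transcript starts of RefSeq's promoter table. These starts need not be the gene's first base: the start used for Ms4a4c lies inside the gene span given above, as the coordinates of its window show, and that of Ms4a6c a few bases inside its span. In the 250 bases before these starts, Ms4a4c and Ms4a4b shared 184 of 221 aligned bases, and Ms4a6c and Ms4a6b shared 152 of 170. The next closest pair, Ms4a7 and Ms4a4b, reached an alignment score of 21, against 109.5 for Ms4a4c with Ms4a4b and 119.0 for Ms4a6c with Ms4a6b. RefSeq's table gave such a window for 7 of the members and not for Ms4a6d. The 4 paired windows are shown because they belong to the members that rose and to the closest copy of each. Capitals mark the matches of 2 short motifs described after them, and each sequence is read 5′ to 3′ on the gene's strand, which is plus, on GRCm38.p6.
Ms4a4c, chr19:11407411-11407660: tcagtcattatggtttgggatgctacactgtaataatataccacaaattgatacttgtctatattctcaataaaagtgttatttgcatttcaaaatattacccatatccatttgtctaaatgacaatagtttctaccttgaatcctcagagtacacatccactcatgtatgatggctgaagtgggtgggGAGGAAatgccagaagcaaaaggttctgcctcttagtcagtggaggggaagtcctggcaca
Ms4a4b, chr19:11443308-11443557: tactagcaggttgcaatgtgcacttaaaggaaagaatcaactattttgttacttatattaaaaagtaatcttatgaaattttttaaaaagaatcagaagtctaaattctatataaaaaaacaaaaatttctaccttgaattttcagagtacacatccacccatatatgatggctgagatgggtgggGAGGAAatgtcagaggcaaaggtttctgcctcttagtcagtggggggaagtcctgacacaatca
Ms4a6b, chr19:11518309-11518558: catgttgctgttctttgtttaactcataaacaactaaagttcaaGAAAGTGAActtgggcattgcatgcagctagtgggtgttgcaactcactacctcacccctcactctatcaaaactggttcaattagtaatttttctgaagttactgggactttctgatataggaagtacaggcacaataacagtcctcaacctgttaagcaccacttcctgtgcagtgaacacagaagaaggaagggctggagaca
Ms4a6c, chr19:11469118-11469367: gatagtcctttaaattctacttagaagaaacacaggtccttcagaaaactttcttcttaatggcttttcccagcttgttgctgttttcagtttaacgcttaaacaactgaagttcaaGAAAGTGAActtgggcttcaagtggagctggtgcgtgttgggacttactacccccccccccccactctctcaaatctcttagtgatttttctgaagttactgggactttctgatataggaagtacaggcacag

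The capitals in the Ms4a4c and Ms4a4b windows are GAGGAA, a core that the myeloid factor PU.1 can bind. It begins 61 bases before the table's internal start of Ms4a4c and 64 bases before the start of Ms4a4b. In the Ms4a6b and Ms4a6c windows the capitals are GAAAGTGAA, a match to GAAANNGAA, a short form of the element bound by interferon regulatory factors. It begins 206 bases before the table's start of Ms4a6b and 133 bases before that of Ms4a6c. Each of 2 windows of Ms4a7, which has 2 starts in the table, also held GAAANNGAA. Searched on both strands over 32851 windows of the same length, GAGGAA was present in 23.3% and GAAANNGAA in 7.13%, so neither is rare. Longer motifs had been searched first: the interferon-stimulated response element core (in 2.98% of all windows), the composite element of PU.1 and interferon regulatory factors (2.30%), the GAS core TTCNNNGAA (7.02%) and GAGGAAGT (2.44%). GAAANNGAA is part of the interferon-stimulated response element core and GAGGAA is part of GAGGAAGT, and the shorter forms were searched after the longer ones gave no match. None of these 4 was found in the 8 windows of the members.

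The anti-gp120 libraries show where the family stands before any comparison. Levels of different genes are compared here only in RPKM, reads adjusted for the length of the gene and for the library, as the authors deposited them. Ms4a7 was the highest member, at 868 ± 162 RPKM after anti-gp120 (SD, n = 5), and ranked between 53 and 77 among all genes over the 10 libraries. Ms4a6d, a macrophage member that works with the receptor Vsig4, followed at 516 ± 62.6 RPKM. Ms4a6b was at 304 ± 41.3 RPKM, Ms4a6c at 236 ± 28.9 RPKM, Ms4a4c at 183 ± 39.8 RPKM and Ms4a4a at 139 ± 27.0 RPKM. A wide step separated these from Ms4a8a, known from alternatively activated tumour macrophages, at 3.73 ± 1.49 RPKM, and Ms4a4b, best known from T and NK cells, at 1.89 ± 0.375 RPKM. In that order, the ranges of neighbouring genes after anti-gp120 were separate between Ms4a7 and Ms4a6d, between Ms4a6d and Ms4a6b, and between Ms4a4a and Ms4a8a. They overlapped for the other 4 pairs of neighbours, although Ms4a6b exceeded Ms4a6c, and Ms4a6c exceeded Ms4a4c, within each of the 5 anti-gp120 libraries.

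**Figure D1:**
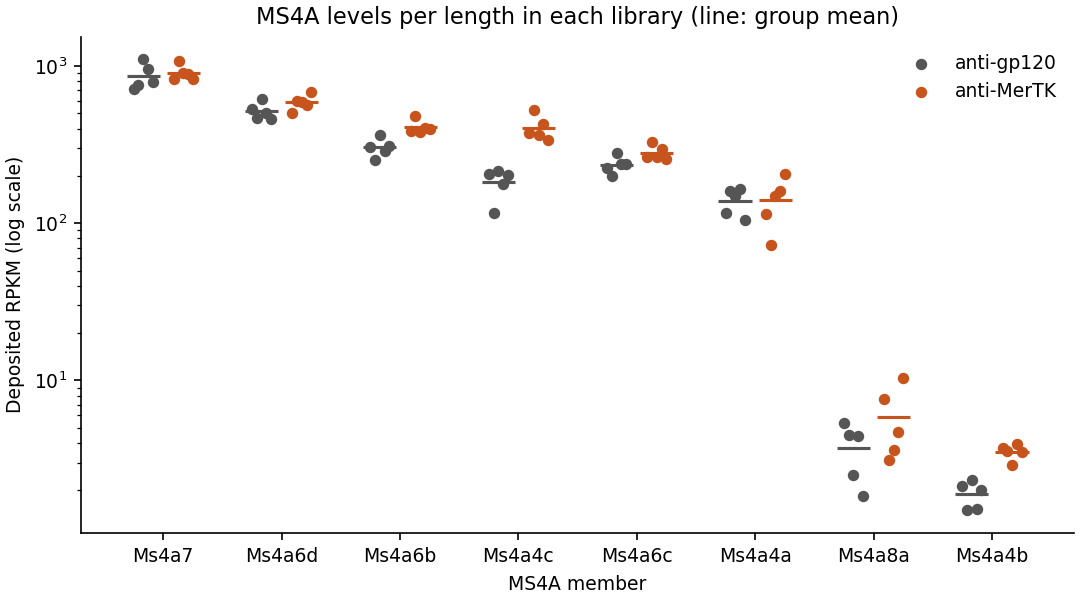
Deposited RPKM (log axis) of the 8 members in each library, with a line at each group's mean. Ms4a4c moved from 183 to 406 RPKM between the group means, and the anti-MerTK points of Ms4a4c, Ms4a4b and Ms4a6b lie above every anti-gp120 point of the same gene.

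After anti-MerTK the order of the family changed at 1 place. Ms4a4c, which ranked below Ms4a6c in each anti-gp120 library, ranked above it in each anti-MerTK library, at 406 ± 73.3 against 281 ± 29.9 RPKM (SD, n = 5), and their anti-MerTK ranges did not overlap. Ms4a4c stood beside Ms4a6b there (410.1 ± 39.5 RPKM) and exceeded it in the other 2 of 5 libraries. Ms4a4c made up 8.13% ± 1.58 of the summed RPKM of the 8 members after anti-gp120 and 14.8% ± 1.71 after anti-MerTK, while the part of Ms4a7 was 38.4% ± 2.81 and 32.9% ± 1.68. The summed level was 2253 ± 300.4 RPKM after anti-gp120 and 2736 ± 221 RPKM after anti-MerTK, with overlapping ranges of 1969 to 2736 and 2475 to 3082.

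Of the 8 members, 3 rose after anti-MerTK and 0 fell, by edgeR's quasi-likelihood test over all 13588 tested genes with a Benjamini-Hochberg adjusted p under 0.05. Of all tested genes, 1.85% were called higher and 1.38% lower, 3.22% in all. The members that rose were Ms4a4c, Ms4a4b and Ms4a6b, and for these 3 the groups did not overlap, as was the case in the same direction for 3.26% of all tested genes and in either direction for 5.97%. All 8 members had a log2 fold change above 0, against 49% of tested genes, and their median was 0.34, against -0.01 over all tested genes. The signs of Ms4a4a and Ms4a7 are not settled, since they changed in 6 and 2 of 18 alternative settings. In these bulk samples, more cells of a type and more RNA per cell cannot be told apart. The call of Ms4a6b was lost with 8 of the 10 single libraries left out, so that 2 members then passed. It was also lost without anti-MerTK replicates 2 and 5, a pair left out because earlier results of these data set them apart, and at an adjusted p under 0.01 none of the 8 passed. At an unadjusted p under 0.05, 2840 of all tested genes passed.

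**Figure D2:**
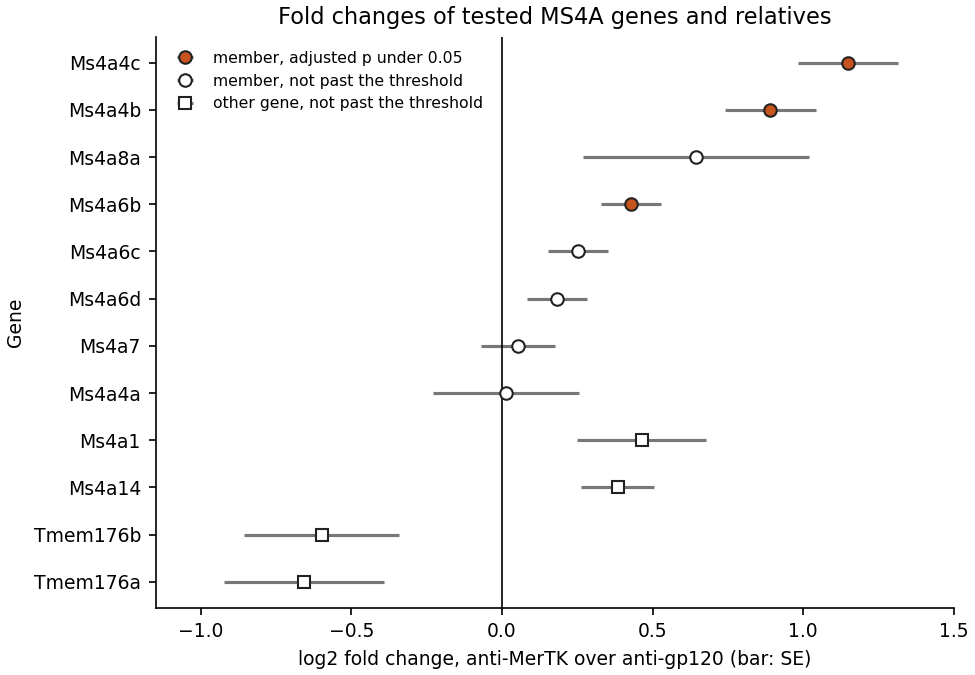
log2 fold change of anti-MerTK over anti-gp120 with its SE for the 8 members (circles) and the 4 tested other genes of the family list (squares). Filled circles mark Ms4a4c, Ms4a4b and Ms4a6b, which passed an adjusted p of 0.05, and Ms4a4a and Ms4a7 sit at 0.01 and 0.05.

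Ms4a4c, a gene of inflammatory monocytes known to respond to interferon, changed most among the members. In CPM, counts scaled to library size, Ms4a4c was at 369, 212, 383, 319 and 364 in anti-gp120 replicates 1 to 5. It was at 668, 945, 656, 768 and 610.2 CPM in anti-MerTK replicates 1 to 5. The lowest anti-MerTK library lay well above the highest anti-gp120 library, and anti-MerTK replicate 2 was the highest of all. The group means were 329 ± 69.8 and 729.5 ± 133 CPM (SD, n = 5), a 2.22-fold rise (log2 fold change 1.15, SE 0.17, edgeR adjusted p = 0.0103). At an adjusted p under 0.05, Ms4a4c was called in 18 of 18 alternative settings. Its log2 fold changes there lay between 1.02 and 1.21, with adjusted p between 2.35e-09 and 0.0422. Depth does not limit this gene, which had 8835 to 33900 counts per library.

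Ms4a4b, also called Chandra, is a membrane adaptor of T and NK cells that associates with the receptor GITR. It was at 2.66, 1.90, 2.90, 1.89 and 2.52 CPM in anti-gp120 replicates 1 to 5 and at 4.67, 4.44, 3.60, 4.94 and 4.35 CPM in anti-MerTK replicates 1 to 5. All anti-MerTK values were above all anti-gp120 values, at a low level of 70 to 218 counts per library. The means were 2.37 ± 0.459 and 4.40 ± 0.503 CPM (SD, n = 5), a 1.85-fold rise (log2 fold change 0.89, SE 0.15, edgeR adjusted p = 0.0142). It passed an adjusted p of 0.05 in 17 of 17 alternative settings that tested it, with adjusted p of at most 0.0483. The summed level of 15 markers of T and NK cells was 13.1 to 21.9 CPM after anti-gp120 and 7.74 to 21.6 CPM after anti-MerTK. The largest parts among the tested markers were Cd4 and Cd247, at means of 7.55 and 5.65 CPM after anti-gp120. Of the 8 of these markers that were tested, 0 were higher, and 1, the T cell receptor chain Cd247, was lower (log2 fold change -0.56, SE 0.14, edgeR adjusted p = 0.0483). Estimates were positive for 3 of the tested markers and negative for 5. Cd2 had a log2 fold change of 0.93 (SE 0.55, edgeR adjusted p = 0.355). Cd3e, Ncr1 and Gzma had no count in some libraries. Whether a change in T or NK cells had a part in the rise of Ms4a4b was not tested.

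The value of Ms4a4b is uncertain beside its near copy, since Ms4a4c was far more abundant. Of the 50-base words of the Ms4a4b transcript, 2.85% also occur in Ms4a4c, and of those of the Ms4a4c transcript 8% occur in Ms4a4b. The deposited counts hold only reads that align uniquely, which leaves out reads that fit both genes. The log2 ratio of Ms4a4b to Ms4a4c counts was -7.10 ± 0.213 after anti-gp120 and -7.36 ± 0.254 after anti-MerTK (SD, n = 5). Their difference of -0.26 did not pass an exact permutation test (two-sided p = 0.127, adjusted over 28 pairs 0.236). Whether reads of Ms4a4c reached the Ms4a4b gene model was not tested.

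Ms4a6b, which is expressed in T cells and in myeloid cells, rose by a smaller factor. Its values were 514, 431, 611, 481 and 521 CPM in anti-gp120 replicates 1 to 5. In anti-MerTK replicates 1 to 5 they were 651, 805, 636, 686 and 666 CPM, so the groups did not overlap but came close. The means were 512 ± 66.1 and 689 ± 67.5 CPM (SD, n = 5), a 1.35-fold rise (log2 fold change 0.43, SE 0.10, edgeR adjusted p = 0.0407). Over the 18 alternative settings the log2 fold change stayed between 0.36 and 0.50, and the adjusted p was under 0.05 in 9 of them. Without anti-gp120 replicates 1, 2, 4 or 5 the adjusted p was 0.0539, 0.0935, 0.121 and 0.0527. Without anti-MerTK replicates 1, 2, 3 or 4 it was 0.0795, 0.0932, 0.0782 and 0.0688, and without anti-MerTK replicates 2 and 5 together it was 0.128.

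Ms4a6c and Ms4a6d, the other genes of the Ms4a6 group, had small positive estimates that did not pass. Ms4a6c, a gene of Ly6C-high monocytes, was at 854, 775, 1060.0, 903 and 914 CPM in anti-gp120 replicates 1 to 5. In anti-MerTK replicates 1 to 5 Ms4a6c was at 1002, 1249, 1005, 1138 and 975 CPM, and 2 of these libraries exceeded every anti-gp120 library. Its log2 fold change was 0.25 (SE 0.10, edgeR adjusted p = 0.172). Of the 50-base words of its transcript, 55.4% lie in BE692007, a long non-coding gene on the opposite strand of the same stretch. The use of strand in counting is not given in the sources used here, so how reads of the shared stretch were assigned to these 2 genes is not known. Over all libraries, 381368 reads were counted to Ms4a6c and 13187 to BE692007. BE692007 itself had a log2 fold change of 0.22 (SE 0.09, edgeR adjusted p = 0.177). Ms4a6d was at 725, 651, 837, 683 and 631 CPM in anti-gp120 replicates 1 to 5 and at 687, 821, 801, 771 and 924 CPM in anti-MerTK replicates 1 to 5. Its log2 fold change was 0.18 (SE 0.10, edgeR adjusted p = 0.307), and the groups overlapped in 4 of 5 anti-MerTK libraries.

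Ms4a7 and Ms4a4a, the members tied to mature and alternatively activated macrophages, showed no detectable difference. Ms4a7 was at 1227, 1323, 1875, 1641 and 1355 CPM in anti-gp120 replicates 1 to 5 and at 1404, 1835, 1531, 1524 and 1409 CPM in anti-MerTK replicates 1 to 5. Every anti-MerTK value of Ms4a7 fell within the anti-gp120 range (log2 fold change 0.05, SE 0.12, edgeR adjusted p = 0.837). Ms4a4a was at 118, 165, 149.6, 167 and 106 CPM in anti-gp120 replicates 1 to 5. In anti-MerTK replicates 1 to 5 Ms4a4a was at 116, 74.1, 150.4, 164 and 209 CPM, so that the lowest and the highest of all 10 libraries were both in this group. Its log2 fold change of 0.01 (SE 0.24, edgeR adjusted p = 0.981) changed sign in 6 of 18 alternative settings, and that of Ms4a7 in 2 of 18. The sign of neither is settled here, and the wide SE of Ms4a4a does not show that its level was the same.

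Ms4a8a varied more between libraries of a group than any other member. It was at 5.79, 4.94, 2.68, 4.73 and 1.99 CPM in anti-gp120 replicates 1 to 5 and at 8.15, 3.36, 3.89, 5.05 and 11.0 CPM in anti-MerTK replicates 1 to 5. Anti-MerTK replicates 1 and 5 were the highest, and the other 3 fell within the anti-gp120 range. The SD was 40.1% of the mean after anti-gp120 and 51.3% after anti-MerTK, and the log2 fold change of 0.64 had an SE of 0.37 (edgeR adjusted p = 0.352). With 81 to 396 counts per library, Ms4a8a also had few reads.

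**Figure D3:**
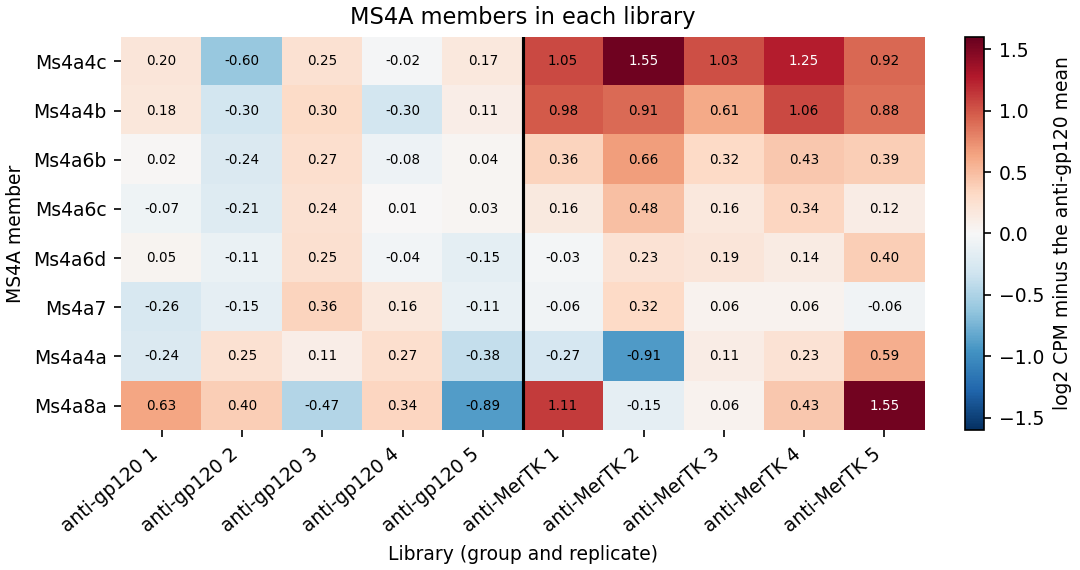
log2 CPM (prior count 2) of each member in each library minus that gene's anti-gp120 mean, red for higher and blue for lower. Ms4a4c ranges from 0.92 to 1.55 in the anti-MerTK libraries, and Ms4a4a is at -0.91 in anti-MerTK replicate 2, where Ms4a4c, Ms4a6b and Ms4a6c are at their highest.

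The plot of values by library shows that the members did not vary as a block. In anti-MerTK replicate 2, Ms4a4c, Ms4a6b, Ms4a6c and, within its group, Ms4a7 were highest, and Ms4a4a and Ms4a8a were lowest within that group. Anti-MerTK replicate 5 was the reverse for several genes: Ms4a4a, Ms4a6d and Ms4a8a were at their highest of all libraries there, and Ms4a4c, Ms4a6c and the summed interferon genes at the lowest of that group. In anti-gp120 replicate 3, Ms4a4b, Ms4a4c, Ms4a6b, Ms4a6c, Ms4a6d and Ms4a7 were the highest of the control group. None of these members had a library beyond Dixon's limit for a group of 5.

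Ratios of 2 members within a library do not depend on how libraries are scaled, and they tested whether members differed in their change. Of 28 pairs, 10 differed between the groups at an adjusted p under 0.05 in a two-sided exact permutation test, and for 9 pairs the groups did not overlap. Each of the 10 pairs holds Ms4a4c, Ms4a4b or Ms4a6b, which were already called in these same libraries, so the pairs are no separate support. The ratios were chosen after seeing the data, many pairs share a member, and the share over pairs of other genes was not computed. The ratio of Ms4a4c to Ms4a6c rose by 0.91 on the log2 scale, from -1.48 ± 0.250 to -0.57 ± 0.102 (SD, n = 5, exact permutation p = 0.00794, the smallest that 252 assignments allow, adjusted p = 0.0247). Relative to Ms4a6b, Ms4a6d and Ms4a7, Ms4a4c rose by 0.73, 0.98 and 1.10, each with the same exact p and adjusted p. Ms4a4b rose relative to Ms4a6b, Ms4a6c, Ms4a6d and Ms4a7 by 0.47, 0.65, 0.72 and 0.83, again at the smallest exact p. Ms4a6b rose relative to its close copy Ms4a6c by 0.18, from -0.82 ± 0.0656 to -0.64 ± 0.0655 (exact permutation p = 0.00794, adjusted p = 0.0247), and relative to Ms4a7 by 0.37 (exact permutation p = 0.0159, adjusted p = 0.0444). Pairs among Ms4a6c, Ms4a6d, Ms4a7 and Ms4a4a did not pass, with exact p between 0.0635 and 0.817. The ratio of Ms4a4a to Ms4a4c, with a difference of -1.21, had an exact permutation p of 0.0238 and an adjusted p of 0.0606.

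**Figure D4:**
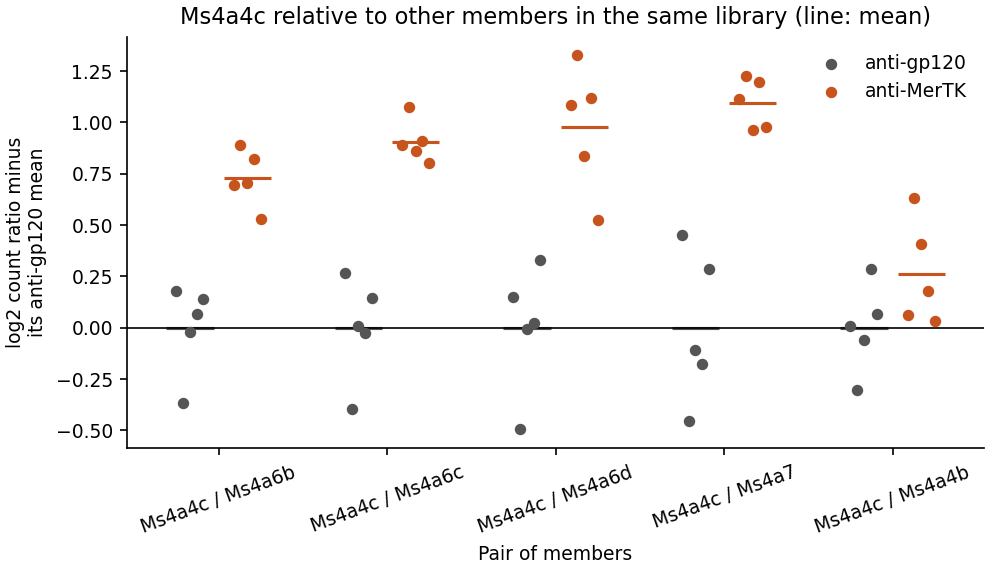
log2 ratio of Ms4a4c counts to those of 5 other members in each library, minus the anti-gp120 mean of that ratio, with a line at each group's mean. The ratios to Ms4a6b, Ms4a6c, Ms4a6d and Ms4a7 rose by 0.73 to 1.10 with no overlap, and the ratio to Ms4a4b overlaps between the groups.

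Along the cluster, the expressed members stood beside genes with few or no reads. RefSeq places 21 Ms4a genes between Ms4a10 and Ms4a3, of which 10 had enough reads to be tested and 4, Ms4a2, Ms4a3, Ms4a10 and Ms4a18, had no count in any library. Ms4a2 encodes the beta chain of the IgE receptor, and Ms4a3 marks granulocyte and monocyte progenitors. Ms4a4d, which lies between Ms4a6b and Ms4a6d, had 1 to 8 counts per library, at a mean of 0.0705 RPKM beside 357 RPKM for Ms4a6b and 552 RPKM for Ms4a6d. Ms4a14, the neighbour of Ms4a7, was at 6.49 RPKM over all libraries.

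**Figure D5:**
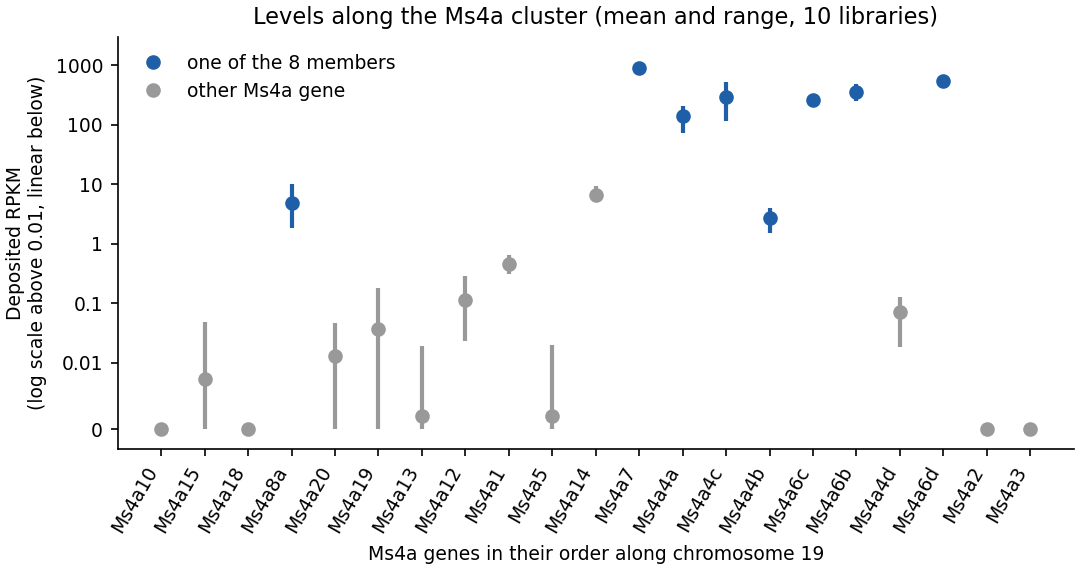
Deposited RPKM of the 21 Ms4a genes in their order along chromosome 19, as the mean (point) and range (line) over 10 libraries, on an axis that is logarithmic above 0.01 and linear below. The 6 members from Ms4a7 to Ms4a6d with over 100 RPKM are interrupted by Ms4a4b at 2.70 RPKM and Ms4a4d at 0.0705 RPKM.

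The fixed list of other family genes and relatives held 14 genes, of which 4 were tested and 0 were called in either direction, with a median log2 fold change of -0.11. Ms4a14 had a log2 fold change of 0.38 (SE 0.12, edgeR adjusted p = 0.101) and passed with DESeq2 (adjusted p = 0.0421). Ms4a1, which encodes CD20 of B cells, was at 0.789 ± 0.163 and 1.09 ± 0.202 CPM (SD, n = 5, edgeR adjusted p = 0.238). Tmem176a and Tmem176b, related membrane proteins of dendritic cells and macrophages encoded outside the cluster, did not pass. Tmem176a had a log2 fold change of -0.66 (SE 0.27, edgeR adjusted p = 0.190), and Tmem176b one of -0.60 (SE 0.26, edgeR adjusted p = 0.215). Both were low in anti-gp120 replicate 1, at 99.5 and 216 CPM against at least 220.1 and 445 CPM in the other anti-gp120 libraries. Without that library both passed, with adjusted p of 0.0327 and 0.0460. The remaining 10 genes had at most 8 counts in any library. Within the cluster, 3 genes outside the family lists were tested and are named after their values were seen. AW112010, a long non-coding RNA beside Ms4a8a, was at 1237 ± 299.6 and 1213 ± 161 CPM (edgeR adjusted p = 0.941). Gm8369, a predicted protein-coding gene between Ms4a6c and Ms4a6b, rose 2.46-fold, from 0.457 ± 0.178 to 1.13 ± 0.433 CPM (SE of the log2 fold change 0.32, edgeR adjusted p = 0.0497). Its adjusted p lay at the threshold, it had at most 59 counts in any library, and its alternative settings are not reported. The third, BE692007, overlaps Ms4a6c, with which its values are given.

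Of 12 receptors, adaptors and proteases listed as linked to MS4A proteins, directly or not, all tested, 0 were called in either direction. Estimates were negative for 10 of them, with a median of -0.16 on the log2 scale. Adam10 and Adam17, proteases that shed surface receptors, had the smallest p of the list, at log2 fold changes of -0.29 for Adam10 (SE 0.08, edgeR adjusted p = 0.0684) and -0.21 for Adam17 (SE 0.07, edgeR adjusted p = 0.127). Clec7a, which encodes dectin-1, was at 548 ± 97.0 CPM in the control and 338 ± 168 CPM in the anti-MerTK libraries. That is a log2 fold change of -0.70 (SE 0.33, edgeR adjusted p = 0.258). A list of 15 genes of alternatively activated and resident macrophages included the glucocorticoid-linked genes Nr3c1, Tsc22d3, Fkbp5 and Dusp1. In this list 1 gene was higher and 0 were lower, against 1.85% and 1.38% of all tested genes. Its log2 fold changes ran from -0.61 to 1.90, with 8 positive and 7 negative. The median of 0.01 was the value of Chil3 (SE 0.67), which was at only 1.33 CPM after anti-gp120. The gene called higher was Dusp1, a phosphatase also induced by stress and tissue handling. Dusp1 rose 1.40-fold, from 935 ± 61.8 to 1309 ± 241 CPM (SE of the log2 fold change 0.12, edgeR adjusted p = 0.0435). Cd36, a scavenger receptor, had a log2 fold change of 1.46 (SE 0.48, edgeR adjusted p = 0.117).

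Of 26 genes of the type I interferon response, 24 were higher and 0 lower, with a median log2 fold change of 1.25. Their summed level was 3003 to 5351 CPM after anti-gp120 and 6413 to 10618 CPM after anti-MerTK, highest in the same library as Ms4a4c, anti-MerTK replicate 2, and lowest in the same library as Ms4a4c, anti-gp120 replicate 2. The 2 of smallest p were Oas1g and Isg15, which rose 2.35-fold and 2.98-fold, next to the 2.22-fold rise of Ms4a4c. The part of this response in the rise of the members was not tested.

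The purified cells carried the macrophage markers that their label names. The 12 macrophage markers summed to between 38030 and 50577 CPM after anti-gp120 and between 39179 and 47211 CPM after anti-MerTK, and 1, the Fc receptor Fcgr1, was higher (log2 fold change 0.64, SE 0.13, edgeR adjusted p = 0.0247). Monocyte markers summed to 1196 to 2180 CPM after anti-gp120 and 1417 to 2473 CPM after anti-MerTK. Of 13 tested, 1 was higher, Plac8 (log2 fold change 2.37, SE 0.50), 10 had a positive estimate, and the median was 0.61. Their part in the rise of Ms4a4c and Ms4a6b was not tested. In anti-MerTK replicate 2, where Ms4a4c was highest, the monocyte sum was the lowest of its group (1417 CPM), and in anti-gp120 replicate 2, where Ms4a4c was lowest, it was the highest of its group (2180.0 CPM). Summed markers of B cells (17.6 to 40.2 CPM over all libraries), dendritic cells (31.6 to 96.8), mast cells and basophils (0.463 to 6.57), neutrophils (62.3 to 105), fibroblasts (6.17 to 41.3), tumour and epithelial cells (25.7 to 59.8) and endothelial cells (69.8 to 131) were low beside them. The dendritic cell sum was 31.6 to 66.5 CPM after anti-gp120 and 54.6 to 96.8 CPM after anti-MerTK, highest in anti-MerTK replicate 2. For tumour and epithelial cells the groups did not overlap, at 36.0 to 59.8 CPM after anti-gp120 and 25.7 to 34.2 CPM after anti-MerTK. The sums of the other types overlapped between the groups. Among the genes of these lists only Cdh1 of the epithelial list was called, lower (log2 fold change -0.72, SE 0.14, edgeR adjusted p = 0.0244). Mertk, the gene of the antibody's target, was at 91.1 ± 14.3 and 78.9 ± 4.96 CPM (edgeR adjusted p = 0.263); a transcript level does not show whether the antibody bound its receptor.

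The genes most like each member were sought by Pearson's r of log2 CPM over the 10 libraries after each group's mean was removed. The 3 highest of 10168 candidates are named for each member, so high values of r arise from the search alone, and r is given as a description. For Ms4a4c they were Ifi204, a DNA-binding protein induced by interferon (r = 0.97), the nucleotidase Nt5c3 (0.97) and Coa5 (0.97), and Ifi204 and Nt5c3 also rose after anti-MerTK (log2 fold changes 0.71 and 0.76, both with edgeR adjusted p = 0.0115). For Ms4a6b they were M6pr (0.97), Zup1 (0.97) and Kptn (0.96), and for Ms4a6c Tsc22d3, a glucocorticoid-induced gene (0.97), Crlf3 (0.97) and Laptm4a (0.96). For Ms4a4a they were Htra3 (0.98), Pxdc1 (0.98) and the myeloid receptor Trem1 (0.98), and for Ms4a7 Ap1s2 (0.97), Zfp90 (0.94) and Trim39 (0.93). Ms4a6d was most like Tceal8 (0.97), Chchd2 (0.97) and Rheb (0.96), Ms4a4b most like Lyrm2 (0.96), Nubp1 (0.95) and Tvp23a (0.94), and Ms4a8a most like the chemokine Ccl6 (0.95), Ugdh (0.95) and Pam (0.94). Between members by the same measure, r was 0.92 for Ms4a6b with Ms4a6c, 0.87 for Ms4a4c with Ms4a6b and 0.85 for Ms4a4c with Ms4a6c, and it was -0.63 for Ms4a4c with Ms4a4a.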

How the data were processed

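RNA-seq was made from polyadenylated RNA of purified tumour-associated macrophages in 2 groups of 5 libraries. Reads were aligned with GSNAP to GRCm38, per the submitters' processing notes. The deposited counts are reads aligning uniquely to each gene model, and the deposited RPKM carry the authors' size-factor adjustment, per the file headers. Versions, annotation, strand use and counter: not given in the sources used here. Of 36528 identifiers, 31049 were named from RefSeq, 78 from GENCODE M21 and 5401 stayed unnamed. No 2 libraries agreed within sampling noise (smallest chi-square per degree of freedom 27.1).

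Counts were tested with edgeR 4.0.16 (R 4.3.3, limma 3.58.1) after filterByExpr, with TMM normalization, robust quasi-likelihood fits and adjustment over 13588 genes. The test was also run on counts simulated with its own fitted dispersions, so that run cannot show how it behaves where this model fails. CPM use TMM library sizes. The SE is the log2 fold change divided by the square root of F. Alternatives were RLE, upper quartile and the authors' size factors, 2 other filters, DESeq2 1.42.0, limma-voom, a stricter threshold and leaving out libraries. Replicates were numbered by accession and are not paired across groups. Named genes were the members, the other family genes, the 3 genes most like each member and genes of smallest p per list, of which the 4 gene lists and 10 marker lists are reported. The members and lists were chosen with earlier results of these data known. Member ratios (counts plus 0.5), motifs and the alignment of promoters were chosen after seeing the data. Sequences are RefSeq's for GRCm38.p6, and 50-base words and coding sequences are from GENCODE M21 transcripts. Figures used matplotlib 3.10.9, with Python 3.11.15.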

Additional observations from a re-analysis of the deposited data

How the results depend on the processing

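At an adjusted p under 0.05, Ms4a4c and Ms4a4b kept their call in each alternative that tested them, and 2 or 3 members were higher throughout. At an adjusted p under 0.01 in the main fit, both lost their call and the count of members that were higher was 0. The count of members that were lower was 0 in all. Ms4a4b and Ms4a8a fell out of the filter of 5 CPM in 5 libraries. With single libraries left out, 2 to 3 members were higher, and over all genes 55 to 370 were higher and 15 to 284 lower. Over all genes, where 251 were higher and 187 lower, 601 and 551 passed with DESeq2, 511 and 496 with limma-voom, and 152 and 52 without anti-MerTK replicates 2 and 5. The cause was not tested. The log2 fold change of Ms4a4a was -0.0579 (adjusted p = 0.896) with limma-voom and -0.17 to 0.18 with single libraries left out, and that of Ms4a7 was -0.0165 to 0.155 with single libraries left out. The median log2 fold change of all genes was -0.00593, and 0.00758 with upper quartile normalization, the scaling that moved it most. Depth limits Ms4a4b and Ms4a8a, with 70 to 218 and 81 to 396 counts per library. The order of levels gave 5 overlapping neighbours both in deposited RPKM and in TMM CPM per length. These scales share the counts and the length factor of each gene and differ only in library scaling, so their agreement is no separate check.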
